A study of Homo sapiens with 24 samples.

Results

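The nuclear genes of oxidative phosphorylation (OXPHOS) were followed through IGF2BP1 knockdown in 4 human cancer cell lines. Members were all protein-coding genes whose symbols named subunits of complex I (NDUFA, NDUFB, NDUFC, NDUFS and NDUFV), complex II (SDHA to SDHD), complex III (UQCR), complex IV (COX4 to COX8) or complex V (ATP5). This gave 89 of 58174 genes listed for each line, or of 19799 protein-coding genes. Complex I held 39 of them, complex II 4, complex III 9, complex IV 17 and complex V 20. The symbols also matched 2 readthrough genes (NDUFC2.KCTD14 and ATP5J2.PTCD1), 3 retrogene copies (UQCRHL, ATP5EP2 and ATP5L2) and 3 genes that are not subunits (COX7A2L, ATP5S and ATP5SL), which left 81 subunit genes. Symbols are given as the tables list them. In current naming, for instance, ATP5B is ATP5F1B and ATP5J2 is ATP5MF.

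IGF2BP1 is an RNA-binding protein of fetal tissues and tumors that binds mRNAs and mainly stabilizes them. Cells derived from lung cancer (A549), ovarian cancer (ES-2), melanoma (MV3) and pancreas cancer (PANC-1) received control siRNA (siC) or IGF2BP1 siRNA (siI1), and no group was left without transfection. Each group held 3 libraries of rRNA-depleted total RNA, 24 in all, and each line stands for a tumor type by that line alone. A549, ES-2 and MV3 cells were harvested 72 h after transfection and PANC-1 cells after 96 h, so for PANC-1 the line and the time cannot be told apart. Libraries held from 3105215 to 20082702 reads assigned to genes, with A549 the shallowest (3105215 to 4553326) and MV3 the deepest (15572492 to 20082702). All 6 epithelial markers examined were at 1 FPKM or more in A549 and PANC-1. Their sum went from 1342 to 1765 FPKM in siC to 2061 to 2214 FPKM in siI1 libraries of PANC-1, and from 1144 to 1249 down to 526 to 557 FPKM in A549. The sum of 4 pancreatic duct markers, which share KRT19 with them, went from 564 to 700 up to 812 to 898 FPKM in PANC-1. Defining markers were absent elsewhere: NKX2-1, SFTPB and SFTPC, of lung epithelium, were listed at 0 in A549, MUC16, of the ovary list, at 0 in ES-2, and SOX10, TYR and DCT, of the melanocyte lineage, at 0 in MV3. Leukocyte and endothelial markers each stayed under 1 FPKM in every line. The fibroblast markers COL1A1, COL1A2 and DCN summed to 2.77 to 4.35 FPKM in siC and 17.4 to 25.8 FPKM in siI1 libraries of ES-2, and to 1.19 to 1.30 and 4.84 to 5.42 FPKM in MV3. The part of these shifts in the results was not tested.

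Oxidative phosphorylation runs in the inner mitochondrial membrane. Complex I and complex II pass electrons from NADH and succinate to ubiquinone, complex III hands them to cytochrome c, complex IV reduces oxygen, and the resulting proton gradient drives ATP synthesis by complex V. The catalytic core of complex I, complex III, complex IV and the proton channel of complex V also contains proteins made from the mitochondrial genome, so nuclear subunits have to be supplied in step with these. The 37 mitochondrial genes were listed at 0 in every library and could not be followed.

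Knockdown was checked first. IGF2BP1 (chr17:48997385-49056145, plus strand, GRCh38) was at 39.8, 39.8 and 39.6 FPKM (read counts scaled to gene length and library size) in siC and 15.3, 16.4 and 15.2 FPKM in siI1 libraries of A549. The log2 fold change (siI1 minus siC, on the log2(FPKM + 0.5) scale throughout) was -1.32 ± 0.05 (SE) in A549, -1.55 ± 0.07 in ES-2, -1.52 ± 0.05 in MV3 and -1.83 ± 0.06 in PANC-1. The siC and siI1 libraries did not overlap in any line.

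In control cells most members were abundant. Between 78 and 79 members per line reached the mean of 0.5 FPKM needed for a test, and 60 to 63 lay above 10 FPKM. Their median was 19.6 FPKM in A549, 28.1 in ES-2, 24.6 in MV3 and 27.2 in PANC-1, against 6.27 to 7.32 FPKM for all protein-coding genes tested. ATP5B, the catalytic beta subunit of ATP synthase, was the highest member per length in every line, with 315 FPKM in A549, 506 in ES-2, 309 in MV3 and 426 in PANC-1. It also ranked first when levels were set per length of the annotated mRNA. Members outside the test were mainly tissue isoforms. COX4I2, an isoform of lung, COX6A2, an isoform of muscle and heart, and COX7B2 were listed at 0 in every library, while COX7A1 and COX8C reached no more than 0.0617 FPKM as a group mean. COX6B2, known from testis, had group means from 0 to 0.235 FPKM. NDUFA4L2, which hypoxia induces in many cells, had group means of 0.175 and 0.39 FPKM in siC and siI1 of A549 and lay lower or similar in the other lines, without a test.

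Upon IGF2BP1 knockdown the members moved in different directions in different lines. In A549, 4 of 79 members tested fell and 3 rose at an adjusted p under 0.05 (limma, Benjamini-Hochberg over all genes tested in the line), against 7.83% and 5.93% of all genes. In ES-2, 13 of 78 fell and 4 rose (16.7% and 5.13%), against 13.0% and 10.5%. In MV3, 14 of 79 fell and 7 rose (17.7% and 8.86%), against 19.5% and 16.3%. In PANC-1 only COX4I1 fell (1.28%) while 36 of 78 rose (46.2%), against 13.4% and 11.3%. The median log2 fold change of the members was 0.07 in A549, -0.06 in ES-2, -0.01 in MV3 and 0.34 in PANC-1, and that of all genes tested was -0.01, -0.02, 0.01 and -0.04. Among protein-coding genes tested, 11.4%, 17.9%, 26.8% and 17.3% fell in A549, ES-2, MV3 and PANC-1, and 7.94%, 13.4%, 19.6% and 13.6% rose. The share of falling members lay near that of protein-coding genes in ES-2 and below it in A549 and MV3. In these 3 lines the share of rising members lay below that of all genes and of protein-coding genes. PANC-1 was the line in which it exceeded both. In PANC-1, 71 of 78 members had a positive log2 fold change. The siI1 libraries lay wholly above the siC libraries for 48 members (61.5%) and wholly below for 2 (2.56%), against 19.4% and 23.8% of all genes. In A549 they lay wholly above for 15 (19.0%, against 15.4%) and below for 10 (12.7%, against 18.5%), in ES-2 above for 11 (14.1%, against 19.5%) and below for 18 (23.1%, against 22.6%), and in MV3 above for 13 (16.5%, against 24.5%) and below for 18 (22.8%, against 25.9%).

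**Figure D1:**
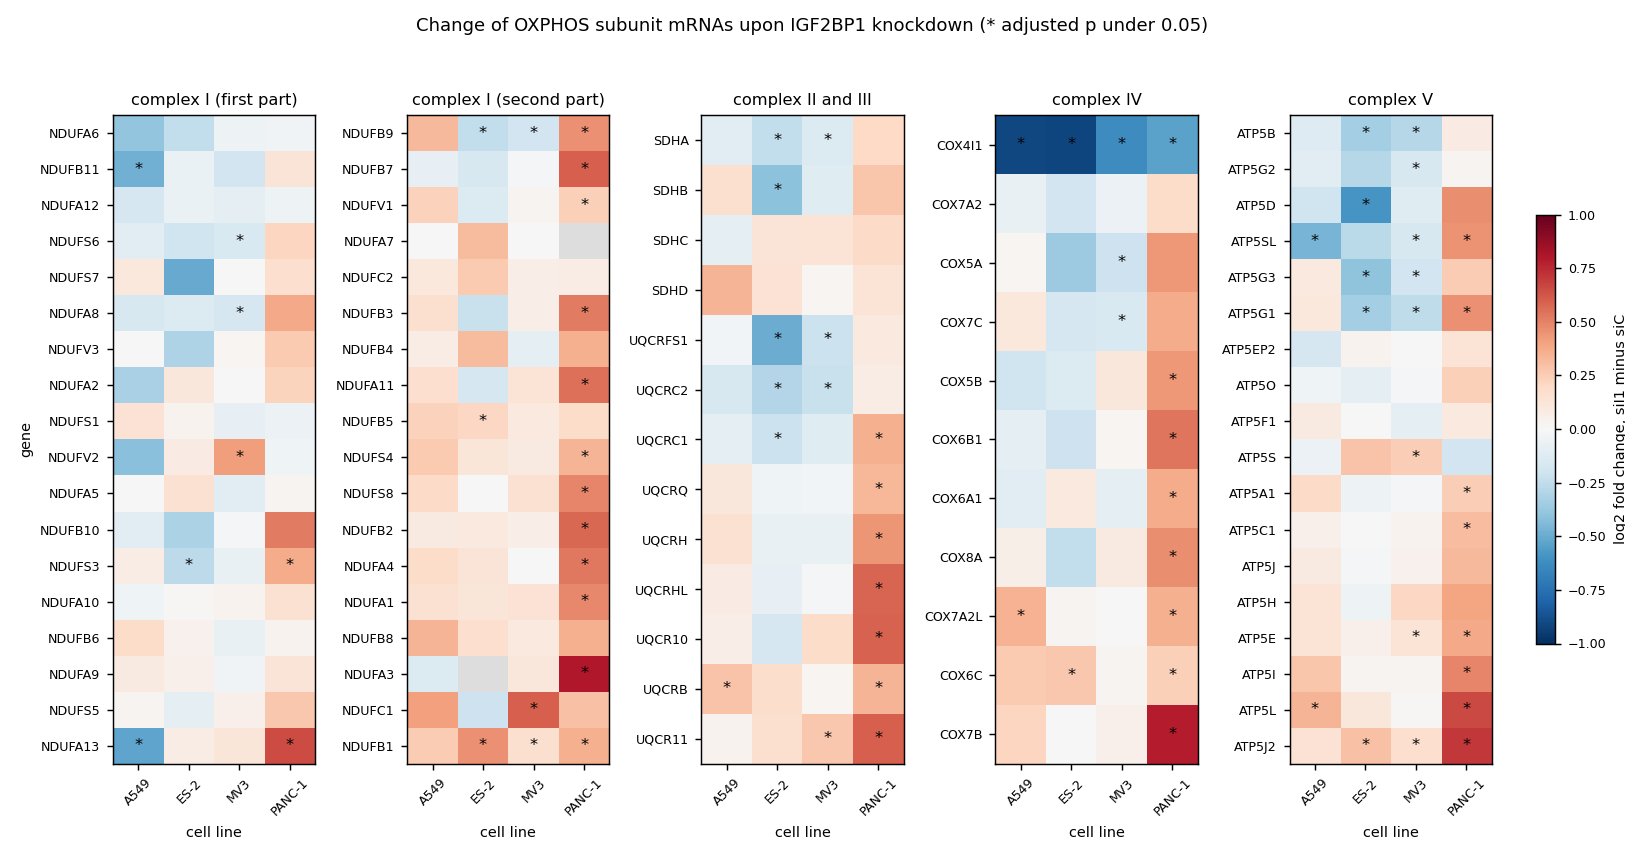
Log2 fold change upon IGF2BP1 knockdown (siI1 minus siC, colour scale from -1 to 1) of the members tested, apart from 1 that is not reported here, with genes in rows and the 4 cell lines in columns, ordered within each complex by the mean over lines; complex II stands above complex III in the shared panel, grey marks a gene not tested in that line and an asterisk an adjusted p under 0.05. COX4I1 is blue with an asterisk in all 4 columns, and PANC-1 holds 36 of the red asterisks.

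**Figure D2:**
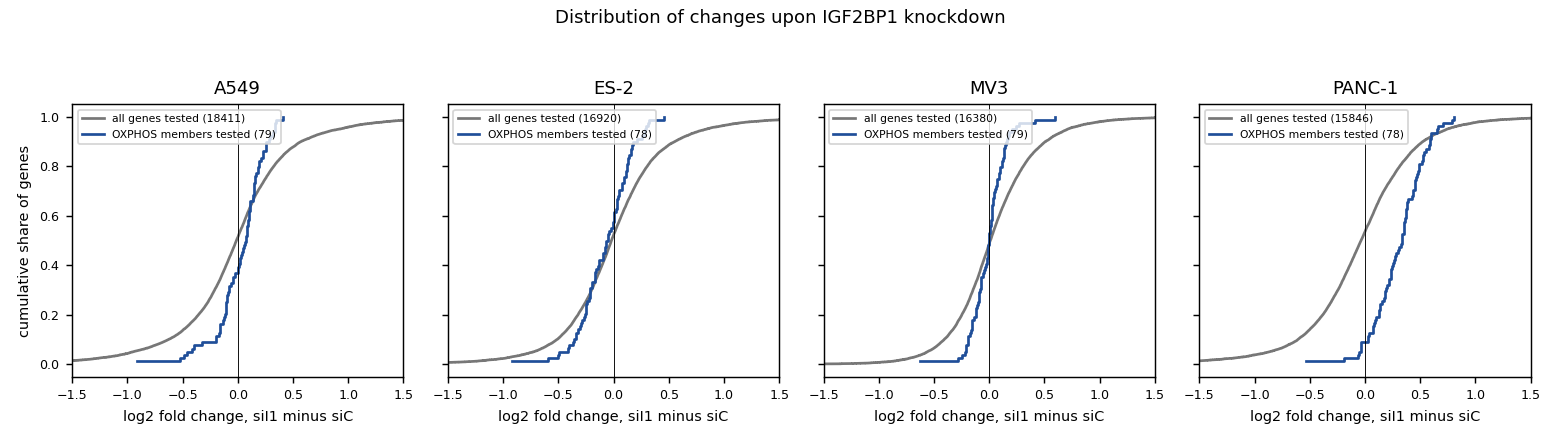
Cumulative share of genes (vertical axis) against log2 fold change (horizontal axis, shown from -1.5 to 1.5) for all genes tested (grey) and for the members tested (blue) in each line. The blue curve lies to the right of the grey one in PANC-1, where the medians are 0.34 and -0.04, and close to it in the other lines.

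COX4I1 was the member lower in all 4 lines. It encodes subunit 4 of complex IV, the nuclear subunit that takes part in the regulation of the oxidase by ATP, and it lies at chr16:85798633-85807068 (plus strand, GRCh38). In A549 it had 43.4, 43.7 and 42.4 FPKM in siC and 20.8, 23.8 and 23.9 FPKM in siI1 libraries. In ES-2 the values were 70.0, 80.4 and 72.9 FPKM against 39.9, 38.90 and 38.6 FPKM. In MV3 they were 54.99, 52.9 and 49.3 FPKM against 32.6, 34.1 and 34.4 FPKM. PANC-1 started lowest, with 38.0, 39.5 and 33.1 FPKM in siC and 26.2, 25.2 and 24.3 FPKM in siI1 libraries. Every siI1 library lay below every siC library of its line. The log2 fold changes were -0.91 ± 0.07 (SE), -0.92 ± 0.06, -0.63 ± 0.05 and -0.54 ± 0.08 in A549, ES-2, MV3 and PANC-1, with adjusted p of 0.00115, 0.000324, 0.000311 and 0.00526. Of 77 members tested in all lines it was the single member to fall in each, and 2.51% of the 12816 genes tested in all lines did so. No COX4I1 pseudogene held a read in any library. The call stood under each alternative run, including each library left out in turn, where the highest adjusted p was 0.0273.

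COX4I1 fell further than the median of the other ubiquitous complex IV subunits. Of these 9, COX5A and COX7C fell in MV3 and 0 fell in the other lines by limma, where 3 in ES-2 and 0 in A549 and PANC-1 were lower at an unadjusted p under 0.05, and likewise by voom. Their median log2 fold change was 0.02, -0.17, 0.02 and 0.43 in A549, ES-2, MV3 and PANC-1. The COX4I1 level was divided by the median of the 9 other ubiquitous complex IV subunits in the same library, a measure that does not depend on library scaling. This ratio was 0.896 ± 0.052 (SD, n = 3) in siC and 0.539 ± 0.028 in siI1 libraries of A549, 1.04 ± 0.09 and 0.609 ± 0.037 in ES-2, 0.936 ± 0.002 and 0.595 ± 0.014 in MV3, and 0.526 ± 0.015 and 0.271 ± 0.022 in PANC-1. The groups did not overlap in any line. In all siI1 libraries of A549 and PANC-1 COX4I1 ranked last among the 10 ubiquitous subunits. EMC8, a subunit of a membrane protein complex of the endoplasmic reticulum, starts head to head with COX4I1 on the opposite strand and overlaps it by 976 bases. EMC8 had log2 fold changes of -0.08, -0.07, -0.11 and 0.27 in A549, ES-2, MV3 and PANC-1, with adjusted p of 0.729, 0.287, 0.158 and 0.0914. The strand setting of the read counting is not given in the sources used here, and reads in the overlap cannot be assigned with certainty.

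**Figure D3:**
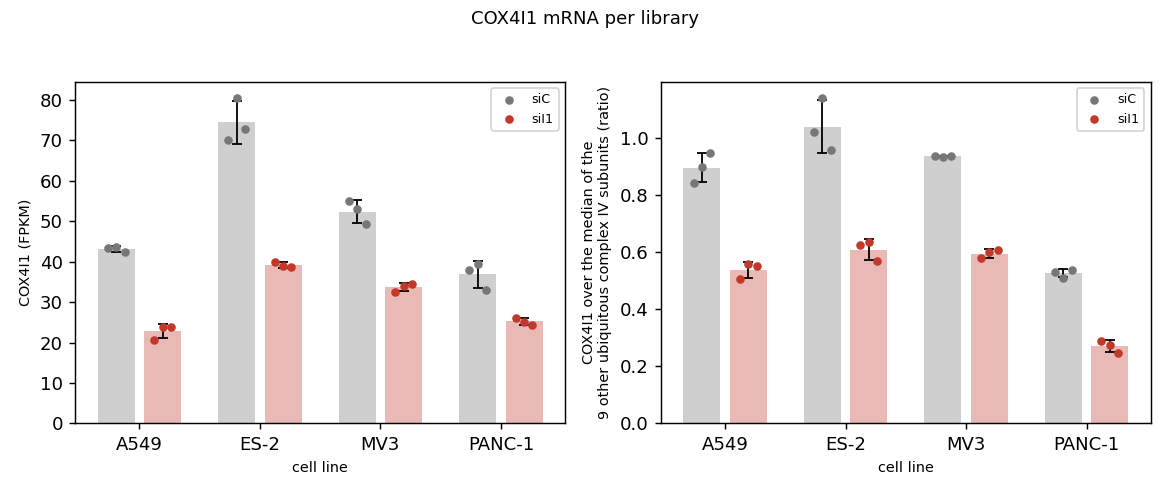
Left, COX4I1 level (FPKM, axis from 0) and right, its ratio to the median of the 9 other ubiquitous complex IV subunits, per library (points) with group mean (bars) and SD (error bars, n = 3) for siC (grey) and siI1 (red) in each line. All siI1 points lie below all siC points of the same line in both panels, with ratios of 0.247 to 0.290 in siI1 of PANC-1.

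The promoter of COX4I1 was set beside those of members that went the other way in PANC-1. RefSeq promoters (GRCh38.p14, 250 bases before to 50 after each start) were found for 68 of 89 members. The ETS motif CCGGAAG, which GABP, a factor known for OXPHOS genes, recognizes, was searched on both strands. It was in a promoter of 20 of the 68 members (29.4%), against 12.2% of 27305 genes and 16.5% of 15843 protein-coding genes. These windows are shown because they carry the same motif (in capitals, CTTCCGG being the other strand) although COX4I1 fell and the small complex III subunits UQCRH, UQCRQ and UQCR11 rose in PANC-1. The motif starts at base 3 of COX4I1 as counted from the RefSeq start (chr16:85799695), which lies 1062 bases downstream of the gene start given above, and 46, 54 and 117 bases before those of UQCRH, UQCRQ and UQCR11 in RefSeq, of which UQCR11 has another copy nearer its start. The windows lie at chr16:85799686-85799715 (plus strand), chr1:46303641-46303670 (plus), chr5:132866577-132866606 (plus) and chr19:1605561-1605590 (minus).
COX4I1: ggccttgctctCTTCCGGtcgcgggacacc
UQCRH: agtgtgccgcaCTTCCGGccagatcgccgg
UQCRQ: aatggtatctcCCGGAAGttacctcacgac
UQCR11: tccaaccctcgCCGGAAGttactgtaagtg

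Among members with a promoter, CCGGAAG was in 14 of 30 that rose in PANC-1 and in 6 of 32 tested there that did not. The core motif GCATGCG of NRF1, a transcription factor of mitochondrial genes, was searched likewise, and since it reads nearly alike on both strands its matches can overlap. It was in promoters of 14 of 68 members (20.6%), against 4.74% of all genes and 6.07% of protein-coding genes. It was in 4 of the 30 that rose in PANC-1 and in 10 of the 32 that did not. Windows are shown (motif in capitals) for a member that rose in PANC-1, ATP5C1, at chr10:7788146-7788175 (plus strand), and one whose change did not pass the test there, SDHD, at chr11:112086754-112086783 (plus strand). The core ATGGCGG of YY1 was in promoters of 21 of 68 members (30.9%), against 6.66% of all genes and 9.15% of protein-coding genes. The YY1 core was in 7 of the 30 that rose in PANC-1 and in 13 of the 32 that did not. Letters in a window describe the sequence and were not tested as binding sites.
ATP5C1: ggagcttcggcGCATGCGcgctgaggcctg
SDHD: gctgtgtttgcGCATGCGcgacgggtgtgc

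In PANC-1 the rise ran through 4 of the 5 complexes. In complex III 7 of 9 members rose, in complex IV 7 of 11, in complex V 8 of 18 and in complex I 14 of 36, against 11.3% of all genes. The medians were 0.35, 0.37, 0.32 and 0.28. These counts include UQCRHL, COX7A2L and ATP5SL (0.45), which rose but are not among the 81 subunit genes. Of the subunit genes alone, 33 of 73 tested rose (45.2%). The complex II genes had log2 fold changes of 0.20 (SDHA), 0.28 (SDHB), 0.19 (SDHC) and 0.13 (SDHD), and none passed the test (limma, adjusted p from 0.11 to 0.39), while 1 was under an unadjusted p of 0.05 and voom called 1. Genes outside the naming rule are given below where they complete a functional group, chosen after their values were seen.

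All 5 small subunits of complex III rose in PANC-1. UQCRH, the hinge protein beside cytochrome c1, went from 162, 178 and 157 FPKM in siC to 224, 228 and 222 FPKM in siI1 libraries, a log2 fold change of 0.44 ± 0.06 (adjusted p = 0.00537). UQCR10 rose by 0.59 ± 0.07 (adjusted p = 0.0033), from 36.6 ± 3.0 to 55.04 ± 2.09 FPKM (SD, n = 3). UQCR11 rose by 0.60, UQCRB by 0.34 and UQCRQ by 0.33. UQCRC1, a core protein, rose by 0.35, whereas UQCRC2, the other core protein, was at 0.07, and UQCRFS1, the Rieske iron-sulfur protein, at 0.10. The retrogene copy UQCRHL, at 0.59, nearly repeats the UQCRH sequence, and how reads were split between them is uncertain.

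In complex IV, COX7B, a small accessory subunit, showed the largest rise of a well-expressed member in PANC-1. It had 37.9, 36.1 and 35.1 FPKM in siC and 64.9, 54.1 and 71.1 FPKM in siI1 libraries, and the groups were apart (log2 fold change 0.78 ± 0.10, adjusted p = 0.00376). COX6B1 rose by 0.54, COX8A by 0.47, COX5B by 0.43, COX6A1 by 0.37 and COX6C by 0.24. COX5A, a subunit of the matrix side, was at 0.43 (adjusted p = 0.099) and COX7A2 at 0.18, both short of the threshold. NDUFA4, named for complex I but assigned to complex IV by structure, rose by 0.53 (adjusted p = 0.0116), and COX7A2L, which joins complex III and complex IV into supercomplexes, by 0.36.

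In complex V the supernumerary membrane subunits rose most in PANC-1. ATP5J2 (subunit f) went from 28.1, 31.9 and 25.4 to 47.4, 44.7 and 47.97 FPKM (0.71 ± 0.09, adjusted p = 0.00327), ATP5L (subunit g) from 84.1 ± 8.4 to 133 ± 9 FPKM (0.66), and ATP5I (subunit e) from 54.5 ± 2.6 to 76.7 ± 1.6 FPKM (0.49). These 3 subunits sit together where ATP synthase forms dimers. Of the F1 head, ATP5C1 (gamma) rose by 0.31, ATP5A1 (alpha) by 0.24 and ATP5E (epsilon) by 0.38. ATP5D (delta) was at 0.47 (limma, adjusted p = 0.066) and ATP5B (beta) at 0.08 (adjusted p = 0.49), both short of the threshold. In complex I, 10 of 28 accessory and 3 of 7 core members rose. NDUFA13 (0.65), NDUFB7 (0.60), NDUFB2 (0.58), NDUFS4 (0.34) and the core subunits NDUFS8 (0.49), NDUFS3 (0.37) and NDUFV1 (0.24) were among them. NDUFA3 had the highest value (0.80) but only 0.73, 0.665 and 0.625 FPKM in siC and 1.24, 1.55 and 1.91 FPKM in siI1 libraries. NDUFS1, the core subunit with most iron-sulfur clusters, was at -0.06 (adjusted p = 0.53).

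The number of rising members in PANC-1 depended on the libraries. It was 19, 48 and 22 without siC replicate 1, 2 and 3, and 16, 20 and 18 without siI1 replicate 1, 2 and 3, while the share of all genes called higher was between 6.59% and 11.9%. Of 37 members called in PANC-1, 15 stayed past the threshold with every library left out, among them COX4I1, COX7B, ATP5J2, ATP5L, ATP5I, UQCR10, UQCRH, NDUFB7, NDUFA13, NDUFB2, NDUFA4 and NDUFS4. UQCRB, UQCRQ, UQCR11 and UQCRC1 did not, with highest adjusted p of 0.0556, 0.062, 0.0896 and 0.0573.

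Library scaling bears directly on this result. The signal recognition particle RNA RN7SL2 took 53.2% ± 3.0 (SD, n = 3) of all FPKM in siC and 63.0% ± 1.4 in siI1 libraries of PANC-1, and 43.7% ± 0.4 and 47.9% ± 0.6 in MV3. When libraries were brought to the same sum over all genes, the median of all genes in PANC-1 moved to -0.68 and that of the members to -0.40, with 36 members lower and 0 higher (limma, and 0 higher at an unadjusted p under 0.05). The members' median exceeded that of all genes by 0.29 under this scaling and by 0.37 as deposited. Scaling a library shifts all its genes alike, apart from the pseudocount, so their position relative to other genes (71 of 78 above the median as deposited) is not tested by it. With the same sum over protein-coding genes 38 rose and 1 fell. The direction of the members' change in PANC-1 thus depended on the scaling.

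By their share of protein-coding FPKM, without a test, the members were higher in PANC-1 and, unlike by the counts and the median, also in MV3. In MV3 the typical gene moved alike under this reference. With the same sum over protein-coding genes the median log2 fold change there was 0.12 for members and 0.13 for all genes. In PANC-1 these medians were 0.29 and -0.07. The members made up 1.86% ± 0.08 (SD, n = 3) of protein-coding FPKM in siC and 2.29% ± 0.07 in siI1 libraries of PANC-1, and 1.44% ± 0.03 and 1.53% ± 0.02 in MV3, with no overlap of the groups in these lines. They made up 1.34% ± 0.02 and 1.37% ± 0.01 in A549 and 1.63% ± 0.02 and 1.63% ± 0.02 in ES-2, where the groups overlapped. Of the FPKM of all genes, RN7SL2 included, they held 0.541% in siC and 0.408% in siI1 of PANC-1.

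**Figure D4:**
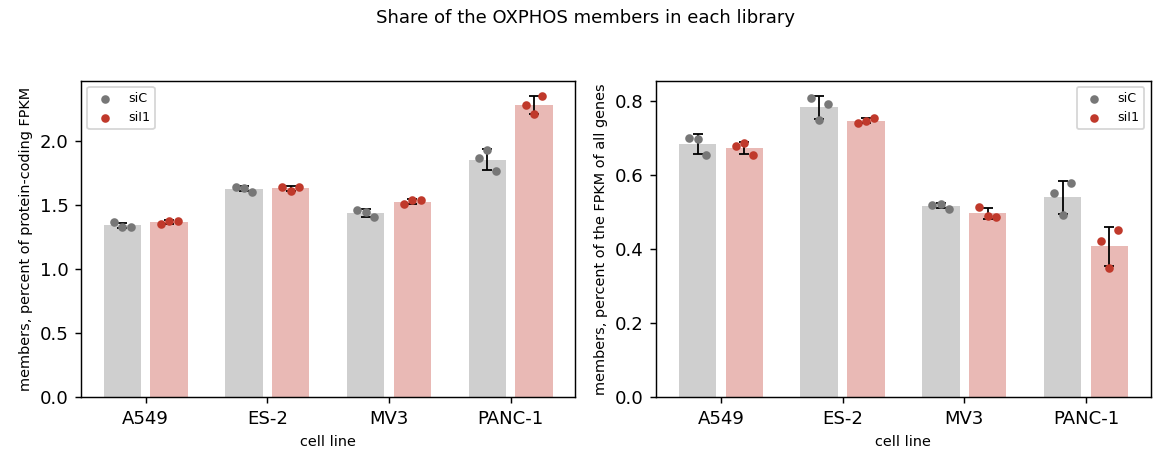
Summed FPKM of the 89 members as percent of the FPKM of protein-coding genes (left) and of all genes (right), per library (points) with group mean (bars, axis from 0) and SD (error bars, n = 3), siC grey and siI1 red. In PANC-1 the siI1 libraries lie above the siC libraries on the left, with means of 2.29% and 1.86%, and below them on the right, with means of 0.408% and 0.541%.

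OXPHOS mRNAs are short, and length moved with the change in PANC-1. The median annotated mRNA length of the members tested in PANC-1 was 830.5 nt, against 3335 nt for other protein-coding genes, with 194 nt and 1331.5 nt of 3′ UTR. Across genes, Spearman's rho of mRNA length and log2 fold change in PANC-1 was -0.40 over 78 members and -0.29 over 11009 other protein-coding genes, which share the libraries and are not independent. In mRNAs under 1000 nt the median log2 fold change was 0.38 for 44 members and 0.20 for other genes. It was 0.26 and 0.09 from 1000 to under 2000 nt (16 members), 0.22 and -0.02 from 2000 to under 4000 nt (10 members), and 0.17 and -0.14 from 4000 nt (8 members). Members thus had the higher median within each bin, the last 3 of which hold few members. In ES-2 the same bins gave medians of -0.09, -0.18, 0.02 and 0.04 for members and -0.14, -0.09, -0.06 and 0.02 for other genes.

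**Figure D5:**
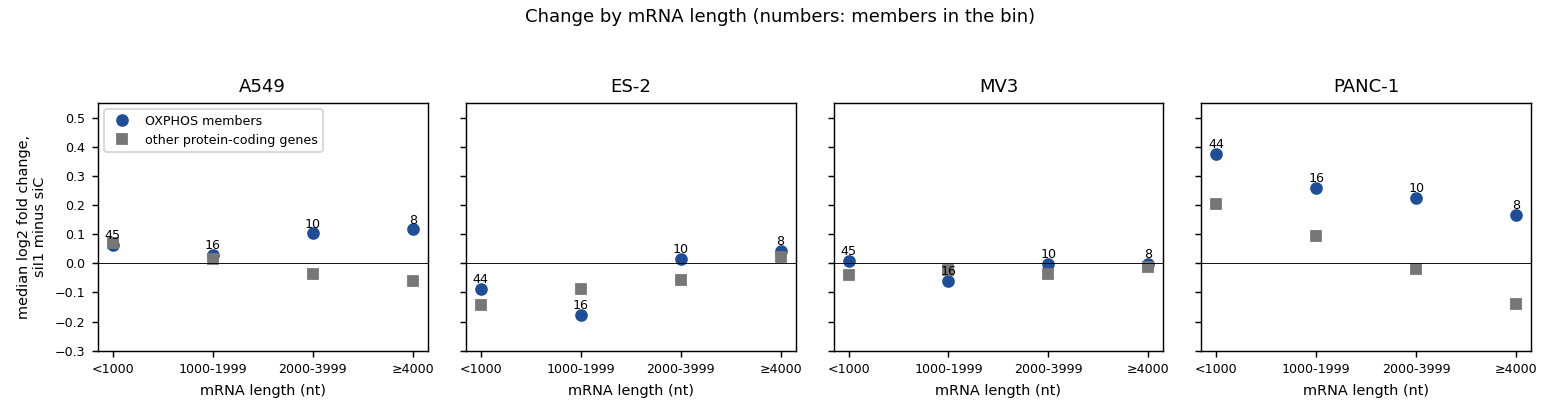
Median log2 fold change (siI1 minus siC) of members (blue circles, with the number of members) and of other protein-coding genes (grey squares) by annotated mRNA length in 4 bins (nt) for each line. In PANC-1 both series fall with length and the members lie higher in every bin, by 0.38 against 0.20 in mRNAs under 1000 nt.

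In ES-2 the 13 members that fell came from all 5 complexes. UQCRFS1, the catalytic Rieske protein, had 32.9, 32.9 and 31.0 FPKM in siC and 23.8, 22.0 and 22.5 FPKM in siI1 libraries, which did not overlap (-0.49 ± 0.05, adjusted p = 0.00148). Together with UQCRC2 (-0.29) and UQCRC1 (-0.22) all 3 large nuclear subunits of complex III that are members fell. Limma called 0 of the 5 small ones in either direction (2 at an unadjusted p under 0.05, 1 by voom). These stood at 0.18 (UQCRB), 0.16 (UQCR11), -0.04 (UQCRQ), -0.07 (UQCRH) and -0.17 (UQCR10). The siI1 libraries lay wholly above siC for 2 of these 5 and wholly below for 0, against 19.5% and 22.6% of all genes. Both catalytic subunits of complex II fell, SDHA, the flavoprotein, by 0.24 and SDHB, the iron-sulfur protein, by 0.41 on the log2 scale, whereas the membrane anchors SDHC and SDHD stood at 0.13 and 0.14, with 0 called by limma or voom and 0 at an unadjusted p under 0.05. ATP5B went from 496, 516 and 506 to 398, 389 and 413 FPKM (-0.34 ± 0.04, adjusted p = 0.00316). ATP5D, the delta subunit of F1, fell by 0.59 and the c-ring genes ATP5G3 and ATP5G1 by 0.40 and 0.34. In complex I the core subunit NDUFS3 (-0.26) and the accessory subunit NDUFB9 (-0.24) were among those that fell. NDUFB1 (0.46), ATP5J2 (0.29), COX6C (0.27) and NDUFB5 (0.21), all accessory or supernumerary, rose.

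The count in ES-2 was 7, 6, 6 and 8 lower without siC replicate 1, siC replicate 2, siI1 replicate 2 and siI1 replicate 3, and 2 higher without siC replicate 2, siI1 replicate 2 or siI1 replicate 3. Of all genes, 8.85% to 9.88% fell and 6.75% to 8.09% rose in the same runs. COX4I1, UQCRFS1, UQCRC2, ATP5B, ATP5G3, NDUFB1 and ATP5J2 were among those that stayed past the threshold with each library left out, and the calls of SDHA, SDHB, ATP5D, ATP5G1, UQCRC1, NDUFS3, NDUFB9, COX6C and NDUFB5 did not. With the same sum over protein-coding genes, which moved the median of all genes by more than 0.1, 5 members fell and 17 rose in ES-2.

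In MV3 the members that fell besides COX4I1 did so by 0.14 to 0.29 on the log2 scale. All 3 genes of the c ring of ATP synthase fell, ATP5G1 from 7.57, 7.59 and 6.80 to 5.92, 5.91 and 6.37 FPKM (-0.25), ATP5G3 from 23.9, 24.6 and 22.8 to 19.99, 21.1 and 21.0 FPKM (-0.19) and ATP5G2 from 14.3, 14.6 and 14.2 to 11.99, 13.2 and 13.3 FPKM (-0.16). The groups were apart for each of them. ATP5B (-0.29 ± 0.04, adjusted p = 0.0038), UQCRC2 (-0.22), UQCRFS1 (-0.21), COX5A (-0.21) and SDHA (-0.14) also fell. NDUFC1, an accessory subunit of complex I, rose from 3.66, 4.37 and 4.40 to 6.03, 6.33 and 7.22 FPKM (0.60 ± 0.09, adjusted p = 0.00389), UQCR11 by 0.27 and the core subunit NDUFV2 by 0.42 at a low level of 2.04 ± 0.23 and 2.89 ± 0.29 FPKM. Across the 77 members tested in all lines, Spearman's rho of the log2 fold changes was 0.57 between ES-2 and MV3 and 0.05 between ES-2 and PANC-1, against 0.48 and 0.17 across all 12816 genes. The MV3 counts were 4, 4, 5, 6 and 8 lower without siC replicate 1, siC replicate 2, siI1 replicate 1, 2 and 3, and 3, 4 and 2 higher without siC replicate 2, siI1 replicate 2 and siI1 replicate 3. Of all genes, 15.2% to 16.5% fell and 11.7% to 12.1% rose in the same runs. COX4I1, ATP5B, UQCRC2, ATP5G3, NDUFC1 and UQCR11 were past the threshold each time. The other MV3 calls were not, among them those of the c-ring genes ATP5G1 and ATP5G2, with highest adjusted p (limma) of 0.0659 and 0.117. With the same sum over protein-coding genes only 2 members fell in MV3 and 30 rose. This scaling moved the median of all genes to 0.13, beside 0.12 for the members, so these counts follow the common shift.

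A549 held the fewest reads and the fewest calls, and the part of depth was not tested. Besides COX4I1, NDUFA13 (-0.53), NDUFB11 (-0.48) and ATP5SL (-0.46), a factor of complex I assembly, were lower. NDUFB11, an accessory subunit of the membrane arm, had 49.97, 43.1 and 54.4 FPKM in siC and 33.5, 39.4 and 32.0 FPKM in siI1 libraries. COX7A2L rose from 15.8 ± 0.9 to 20.3 ± 1.1 FPKM (SD, n = 3; 0.35), ATP5L by 0.34 and UQCRB by 0.29. Of these 7 calls only COX4I1 stood with each library left out. The counts were 1, 2, 1, 1 and 2 lower without siC replicate 1, 2, 3, siI1 replicate 1 and siI1 replicate 3, and 0 higher without siC replicate 1, siC replicate 2, siI1 replicate 2 or siI1 replicate 3, where 6 to 14 rose at an unadjusted p under 0.05. Of all genes, 4.32% to 5.62% fell and 2.85% to 4.13% rose in the same runs. By voom on the recovered reads 8 rose in A549.

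The difference between lines was tested directly. Cochran's Q over the limma estimates of the 4 lines, adjusted over all genes tested in each line, called 48 of 77 members (62.3%), against 42.9% of all 12816 genes. The member's highest log2 fold change was in PANC-1 for 44 of these 48, and the lowest was in ES-2 for 29. After subtraction of each line's median 49 members were called, against 43.3% of all genes. All genes here include non-coding genes and many at lower levels than the members. No share was computed for genes at like levels, and the part of level was not tested. NDUFA13, named also GRIM-19 and an accessory subunit of complex I, was at -0.53 in A549, 0.08 in ES-2, 0.12 in MV3 and 0.65 in PANC-1 (adjusted p = 0.000829). ATP5G3 was at 0.10, -0.40, -0.19 and 0.25 (adjusted p = 0.00115). COX4I1 fell in each line but also differed in size (adjusted p = 0.00787). NDUFB1 and ATP5J2 had positive values in each line, at 0.26, 0.46, 0.16 and 0.35 and at 0.15, 0.29, 0.17 and 0.71, and the A549 value of each did not pass the test. NDUFA6, lowest of complex I by its mean over lines, was at -0.40, -0.24, -0.05 and -0.04 with no call.

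Other genes of the pathway were counted from lists by function. Of all genes, 7.83%, 13.0%, 19.5% and 13.4% fell and 5.93%, 10.5%, 16.3% and 11.3% rose in A549, ES-2, MV3 and PANC-1. For protein-coding genes these shares were 11.4%, 17.9%, 26.8% and 17.3%, and 7.94%, 13.4%, 19.6% and 13.6%. Of 15 biogenesis regulators tested, 3 fell in A549, 4 in ES-2 (26.7%), 8 in MV3 (53.3%) and 5 in PANC-1 (33.3%), and 2 rose in ES-2 (13.3%) and 1 in PANC-1 (6.67%). TFAM, which packages and transcribes mitochondrial DNA, fell by 0.91 in A549, 0.66 in MV3 and 0.51 in PANC-1 on the log2 scale, so in PANC-1 it went down while most members did not. ESRRA and PPRC1, a nuclear receptor and a coactivator of mitochondrial genes, fell in A549 (-0.36 and -0.32), ES-2 (-0.48 and -0.42) and MV3 (-0.47 and -0.50). NRF1 fell in PANC-1 (-0.38). Of 13 enzymes of the TCA cycle, 1 rose in A549 (7.69%), 7 fell in ES-2 (53.8%), among them FH (-0.49) and OGDH (-0.44), and 5 fell (38.5%) and 1 rose (7.69%) in MV3. In PANC-1 2 fell (15.4%) and 4 rose (30.8%), MDH2 by 0.48 and OGDH by 0.30. CYC1, the cytochrome c1 of complex III that the symbols missed, fell from 112 ± 7 to 82.1 ± 7.4 FPKM in ES-2 (-0.45) and from 153 ± 5 to 119 ± 5 FPKM in MV3 (-0.36), as did cytochrome c itself (CYCS; -0.63 and -0.61). USMG5, another subunit of the ATP synthase dimer, rose in A549 (0.43) and PANC-1 (0.57).

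Assembly factors and hypoxia genes were counted likewise. Of 54 assembly factors, 1 fell and 2 rose in A549 (1.85% and 3.70%), 12 and 2 in ES-2 (22.2% and 3.70%), 15 and 8 in MV3 (27.8% and 14.8%), and 6 and 14 in PANC-1 (11.1% and 25.9%), with medians of 0.04, -0.10, -0.08 and 0.10. The share that fell in MV3 lay near that of protein-coding genes (26.8%). In PANC-1 the complex II factors SDHAF1 (0.61), SDHAF2 (0.41) and SDHAF4 (0.76) rose. C15orf48, an alternative to NDUFA4 in complex IV, fell in A549 from 19.1 ± 1.7 to 10.5 ± 1.2 FPKM (-0.84) and rose in PANC-1 (0.28). Of the 12 hypoxia-inducible genes listed, 8 of 12 tested rose in A549 (66.7%), with BNIP3 at 1.45, PDK1 at 1.44 and CA9 at 2.38. In ES-2 3 of 9 tested rose (33.3%) and 2 fell (22.2%), and in MV3 5 of 11 rose (45.5%) and 1 fell (9.09%). In PANC-1 2 of 10 fell and 0 rose by limma, with 1 higher at an unadjusted p under 0.05 and 1 by voom. The medians were 0.64, 0.04, 0.22 and -0.11.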

How the data were processed

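RNA-seq of 24 libraries was available as a table per cell line. The authors trimmed reads with cutadapt 1.14, aligned them to hg38 with HISAT2 2.1.0 (SAMtools 1.5), counted them with featureCounts 1.5.3 and normalized them with edgeR 3.30.3 (TMM), and the deposited values are FPKM. Multiplied by the listed length, 100% of values were whole multiples of a per-library step (tolerance 0.001), which returned the reads. The tables' own comparison columns (fold changes, p-values and FDR) were not used. Tests ran per line on log2(FPKM + 0.5), over genes averaging 0.5 FPKM or above, by limma 3.58.1 in R 4.3.3 (intensity trend, two-sided, no covariates, Benjamini-Hochberg), siI1 minus siC. Differences between lines were tested by Cochran's Q referred to an F distribution. Both were tested on simulated data. For limma these gave all genes and lines the same spread beyond counting noise. Scatter between real replicates varied and was largest between siC replicates 2 and 3 of PANC-1, which the simulation did not cover. Coordinates and mRNA lengths came from GENCODE 44 and promoters from RefSeq. Replicates are described by the study as biological, and no more is given on their origin. Each line's table was normalized on its own, so levels were not tested between lines. With 3 libraries a group, small differences could be missed.

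Members and lists were chosen with earlier results of these data known. Named were IGF2BP1, catalytic and isoform genes fixed by role, the 3 largest falls and rises past the threshold per line, and the members with the lowest and highest mean per complex, of which 1 is counted but not reported here. Replicate numbers did not pair libraries (highest correlation of same-numbered deviations 0.071). Alternatives were other pseudocounts, filters, scalings, voom on the recovered reads, a replicate block, subunits only and each library left out. Library shares, COX4I1 ratios, length bins and motif searches were chosen after seeing the data. Pseudogenes with these symbols (142) held 0.262% to 0.501% of reads and were left out.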

Additional observations from a re-analysis of the deposited data

Results flagged for a closer look

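For 26 named members and IGF2BP1 the log2 fold changes differed between the 4 lines (Cochran's Q over limma estimates, adjusted over all genes tested in every line). IGF2BP1 itself fell least in A549 and most in PANC-1 (adjusted p = 0.0023). In complex I these were NDUFA13 (adjusted p = 0.000829), NDUFB11 (0.0169), NDUFV2 (0.0211), NDUFB1 (0.0245), NDUFV1 (0.0312) and NDUFA4 (0.0227), the last a complex IV subunit by structure. NDUFV2 was at -0.42 in A549 and 0.42 in MV3. In complex II they were SDHB (0.00526) and SDHA (0.0167), each lowest in ES-2 and highest in PANC-1. In complex III they were UQCRFS1 (0.00106), UQCRC1 (0.00155) and UQCRB (0.0166).

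In complex IV the lines differed for COX7B (0.00148), COX7A2L (0.00425), COX4I1 (0.00787), COX6A1 (0.00951), COX6B1 (0.0129), COX5A (0.0211), COX7A2 (0.0221) and COX8A (0.0236). COX7B was at 0.78 in PANC-1 and between 0.00 and 0.21 in the other lines. In complex V they differed for ATP5G3 (0.00115), ATP5G1 (0.0028), ATP5L (0.00286), ATP5J2 (0.00508), ATP5B (0.00805), ATP5D (0.0133) and ATP5A1 (0.0135). ATP5G1 fell in ES-2 and MV3 and rose in PANC-1. Of all genes tested in every line, 42.9% differed by the same test. PANC-1 cells were harvested later than the others, so line and time cannot be told apart there.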

How the results depend on the processing

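COX4I1 stayed lower in each line under every alternative run, and the members' median in PANC-1 exceeded that of all genes by 0.29 to 0.43 throughout, which a scaling cannot test, as it shifts all genes alike. Counts moved more (limma adjusted p under 0.05, limma voom where named). On recovered reads voom called 8 members higher in A549, and 21 lower and 7 higher in ES-2. A minimum of 5 FPKM gave 6 higher in A549 and a members' median 0.0622 above that of all genes in MV3, and no filter 1 lower in A549. Without the TMM factor 5 were higher in A549, 8 lower and 15 higher in MV3 (median 0.0490), and 2 lower and 17 higher in PANC-1 (median 0.1727). With the same sum over all genes 7 were lower in ES-2 (median 0.0131), 4 higher in MV3, and 36 lower and 0 higher in PANC-1 (median -0.3952), with 0 higher at an unadjusted p under 0.05. With the same sum over protein-coding genes 6 were higher in A549, 5 lower and 17 higher in ES-2 (median 0.0843), and 2 lower and 30 higher in MV3 (median 0.1237), where ATP5A1 moved to 0.1144. In all lines the change of scaling itself moves these values. The replicate block, with numbers that did not pair the libraries (correlations from -0.056 to 0.071), gave 1 lower and 0 higher in A549 (6 at an unadjusted p under 0.05), 8 and 2 in ES-2, 6 and 3 in MV3, and 18 higher in PANC-1, and 38 members that differed between lines. Best agreement of all siC libraries with their own number was seen in no line. With each library left out in turn, the number lower ranged from 1 to 4 in A549, 6 to 12 in ES-2, 4 to 15 in MV3 and stood at 1 in PANC-1. The number higher ranged from 0 to 3, 2 to 5, 2 to 7 and 16 to 48. Of all genes, 4.32% to 5.62%, 8.85% to 10.2%, 15.2% to 18.5% and 7.84% to 12.3% fell in these runs. Those that rose made up 2.85% to 4.13%, 6.75% to 8.39%, 11.7% to 15.6% and 6.59% to 11.9%. The MV3 median ranged from -0.0439 to 0.0335 and its distance to all genes from -0.0589 to 0.0281, both turning positive (0.0335 and 0.0281) without siC replicate 1. Of 1570 comparisons of named genes with an alternative, 1344 kept direction and side of the threshold, 179 lost the call, 46 gained it and 1 (ATP5A1) turned. Where no construction of the alternative shows it, the cause was not tested. A549 held the fewest reads, and the effect of depth was not tested.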
